A study of Danio rerio with 3 samples.

Results

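Zebrafish embryos that had received 6 ng of a morpholino against hnrnpaba were compared with embryos that had received 3 ng of the same morpholino. hnrnpaba encodes heterogeneous nuclear ribonucleoprotein A/Ba, a zebrafish counterpart of human HNRNPAB, and proteins of this family bind RNA and act in its splicing, transport and stability. Morpholinos are synthetic antisense oligomers. Depending on where they pair with an RNA, they block its translation or its splicing. The labels do not say which of these steps the hnrnpaba morpholino blocks. Of 25961 genes in the deposited table, the 16429 with a mean of 1 FPKM or more over the 3 columns were compared, and the other 9532 were left out.

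All embryos were of the Tuebingen strain, were injected at the 1-cell stage, were raised at 28.5 °C and were collected whole at 24 hours post fertilization. The series holds 3 libraries, each from 30 pooled embryos: a standard control morpholino at 3 ng, the hnrnpaba morpholino at 3 ng and the hnrnpaba morpholino at 6 ng. Each dose is 1 library, so no difference below has a replicate check and no p-value was computed. No control at 6 ng was analysed here, so a larger dose against hnrnpaba and a larger mass of injected oligomer cannot be told apart. The control library entered the filter on low values and its levels are given beside the others, but it has no part in any difference between the doses.

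Values are FPKM, fragments scaled to the length of the gene model and to the library total, as the authors deposited them. The library totals, recovered from the steps between FPKM values, were 17748075 fragments at 3 ng, 13557636 at 6 ng and 14589056 in the control. A difference is the log2 of the ratio of FPKM + 1, 6 ng over 3 ng, and the limit for calling a gene higher or lower was 2-fold on this scale. The fold of a named gene is its plain ratio of FPKM, with a 95% exact (Clopper-Pearson) interval from the fragments behind them. The intervals hold counting error and nothing of how pools of embryos vary. In whole embryos, fewer cells of a type and less RNA per cell cannot be told apart.

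The transcript of the targeted gene was 459 FPKM at 3 ng and 342 FPKM at 6 ng, with 442 FPKM in the control. The 6 ng level of hnrnpaba was thus 0.745 times the 3 ng level (interval 0.728 to 0.763), and the 3 ng and control levels were close to each other. Its paralog hnrnpabb was 244 FPKM at 3 ng and 215 FPKM at 6 ng, with 242 FPKM in the control, which gives 0.880 times the 3 ng level (0.858 to 0.902). RNA levels do not measure the protein, and neither value checks the dose.

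Most genes had similar levels at both doses. The 25th and 75th percentiles of the log2 difference were -0.14 and 0.25, and 14958 genes (91.0%) lay within 1.5-fold. The median gene stood 0.05 higher at 6 ng. There were 183 genes at least 2-fold higher at 6 ng (1.11% of the 16429) and 163 at least 2-fold lower (0.992%), 346 in all (2.11%). For 163 of the 183 higher genes and 135 of the 163 lower genes the counting interval of the fold excluded equality. It lay wholly past 2-fold for 84 and 81 of them. The same values set the calls and the intervals, so these counts were favoured by the choice of genes and are no check on the calls. The share of all genes with such an interval is not given here.

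**Figure D1:**
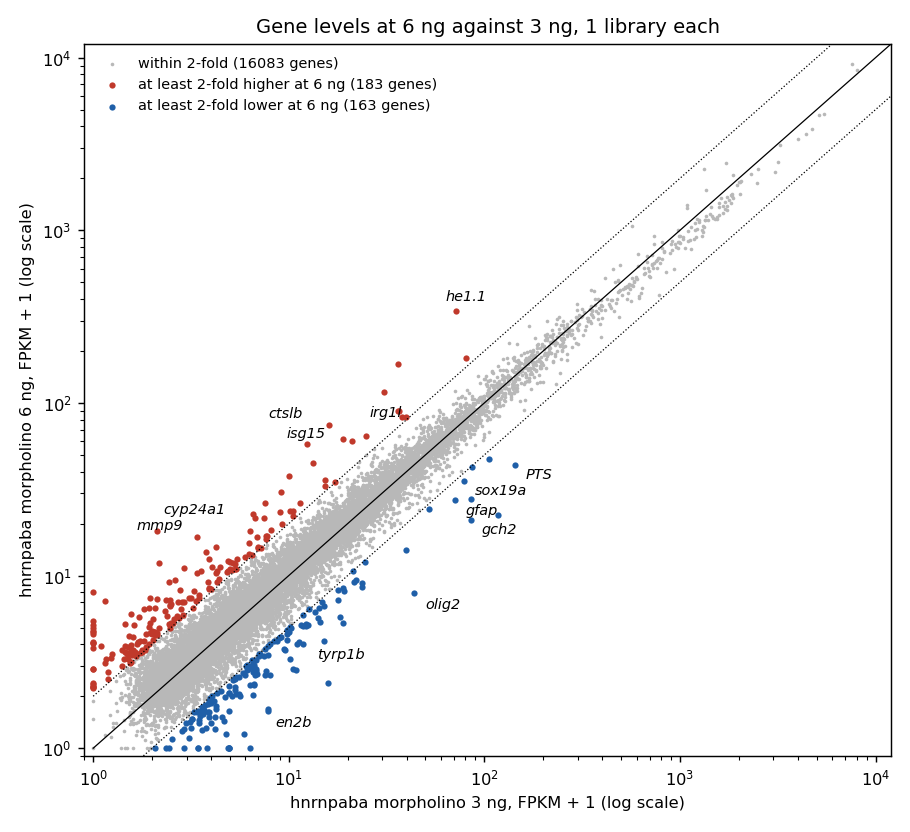
FPKM + 1 at 3 ng (horizontal) and 6 ng (vertical) of the 16429 genes, both on log scales, 1 library each, with equality as a solid line and 2-fold as dotted lines. The 183 higher genes (red) include he1.1 and mmp9, and the 163 lower genes (blue) include olig2 and gch2.

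The genes past 2-fold had short recovered lengths and were often weakly expressed. Lengths were recovered from the FPKM values as the shortest that fit, and few fragments can make them too short. The median recovered length was 921 bases for the higher genes and 1046 bases for the lower genes, against 2233 bases for all genes compared. In the fifth of genes with the shortest recovered lengths, up to 1210 bases, 111 were higher and 86 lower. In the fifth with the longest, 6 were higher and 11 lower. The part of the recovery in these differences of length was not tested. The median higher gene had 1.47 FPKM at 3 ng and 5.72 FPKM at 6 ng, and the median lower gene had 5.56 FPKM and 1.67 FPKM. Among the higher genes 104 have only a clone name or an identifier, as have 64 of the lower genes. Just inside the limit, at a log2 difference of 1 to 1.1, lay 39 higher and 43 lower genes, and just outside it, at 0.9 to 1, lay 67 and 45.

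Both hnrnpaba morpholino libraries carried the RNA of the tissues of a whole embryo. krt4 of the epidermis was 7579 FPKM at 3 ng and 9187 FPKM at 6 ng, mylpfa of fast muscle 1548 and 1166 FPKM, and the embryonic globin hbbe3 901 and 834 FPKM. The notochord gene tbxta was 44.6 and 52.7 FPKM, and elavl3 of neurons 35.4 and 28.7 FPKM. The leukocyte markers lyz, mpx and spi1b were under 1 FPKM in all 3 libraries.

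Genes were grouped into 58 lists of tissues, pathways and complexes. In 32 lists no member was past 2-fold, 8 lists held higher members and no lower one, 16 held lower members and no higher one, and 2 held both. Among the 2274 genes on any list that were compared, 19 were higher, beside 1.11% of all genes, and 58 were lower, beside 0.992% of all genes. Medians are over the members that passed the filter, and a member with a high level in 1 library can pass through that library alone. The lists with the highest medians were the interferon response (0.53), epidermis and periderm (0.37), AP-1 and immediate early genes (0.30) and injury proteases and cytokines (0.29). The lowest were lens (-0.91), melanophore (-0.75), SoxB and radial glia (-0.62) and Zic (-0.43), beside 0.05 over all genes.

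**Figure D2:**
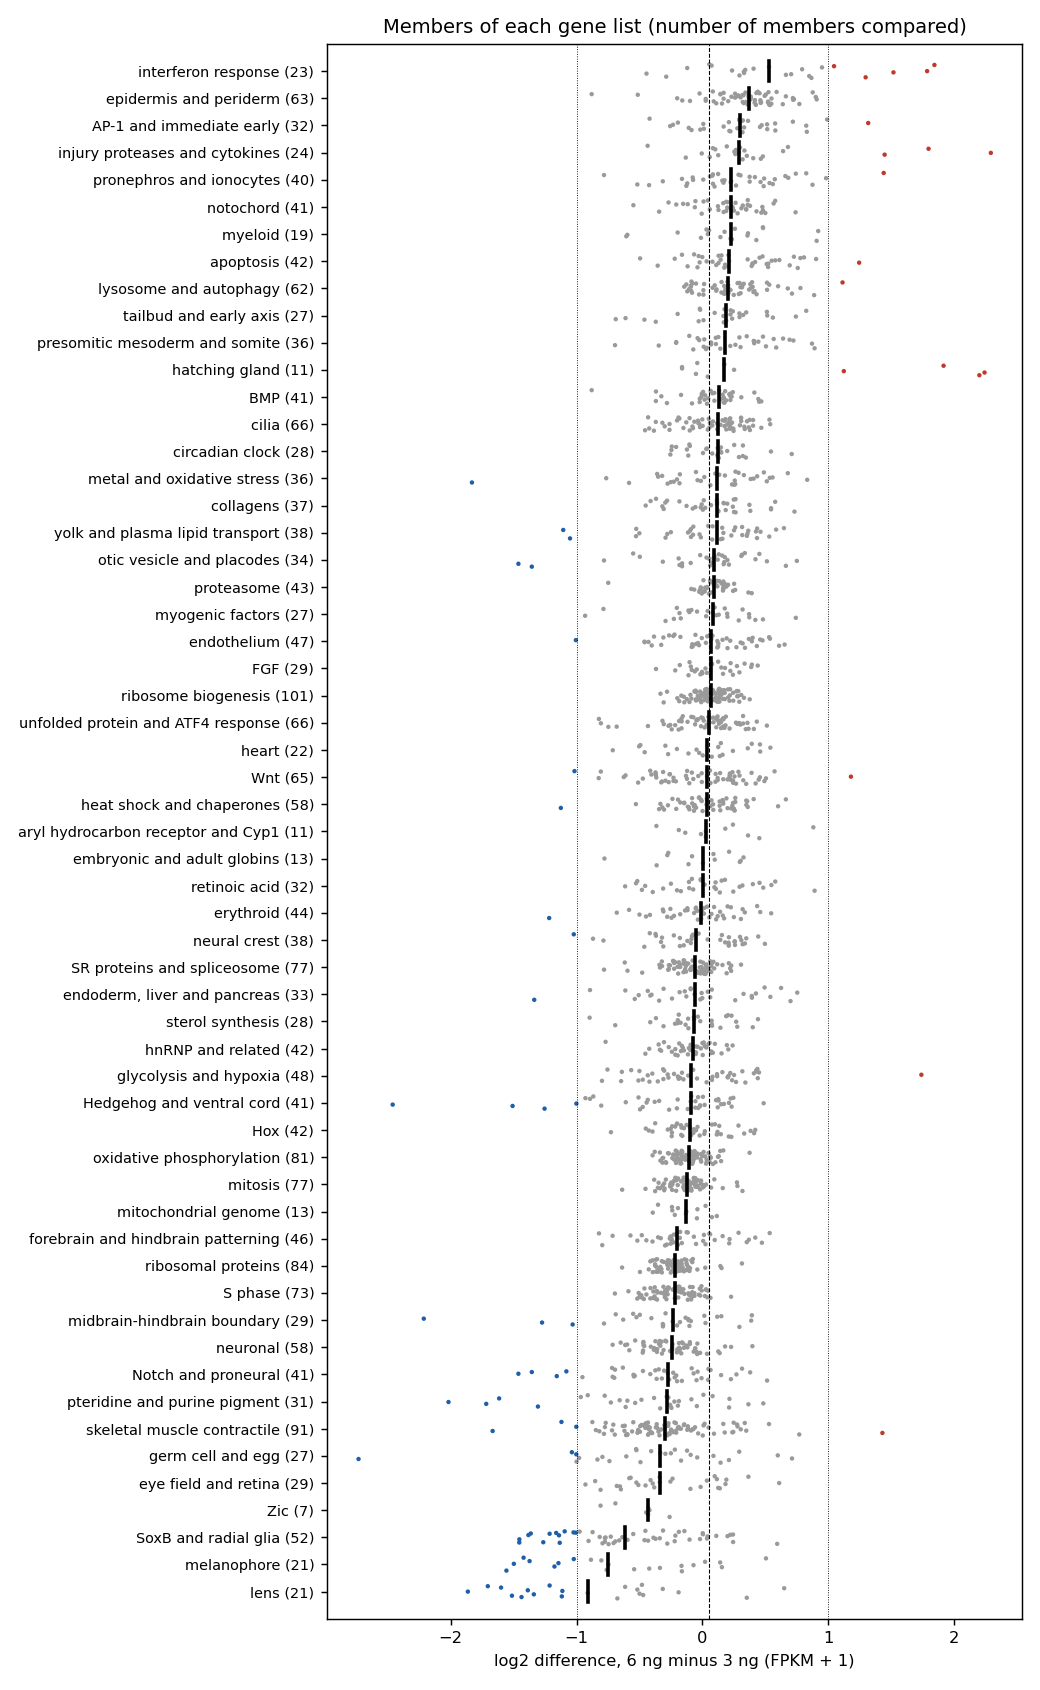
Log2 difference (6 ng minus 3 ng, FPKM + 1) of each member compared, by gene list, with the number of members in parentheses (1 list is not drawn). Black bars are list medians, the dashed line is the median of all genes (0.05), dotted lines mark 2-fold, and members past it are red (higher) or blue (lower); lens, melanophore and SoxB members reach furthest to the left as groups.

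The hatching gland is a band of secretory cells on the anterior yolk that releases proteases which digest the egg envelope. Its proteases were among the most strongly expressed of the higher genes. he1.1, a hatching enzyme of the astacin family of metalloproteases, was 70.8 FPKM at 3 ng and 338 FPKM at 6 ng, with 197 FPKM in the control. That is 4.78-fold higher at 6 ng (interval 4.5 to 5.08), and the 3 ng library was the lowest of the 3. Its tandem copy he1.2 was 29.7 FPKM at 3 ng, 115 FPKM at 6 ng and 105 FPKM in the control, a 3.86-fold difference between the doses (3.49 to 4.28). The third copy, he1.3, was 36.9 FPKM at 3 ng, 81.5 FPKM at 6 ng and 16.9 FPKM in the control, and here the control was the lowest. The copies lie between positions 14093306 and 14103633 of chromosome 22 of the deposited table, whose build is not given, and reads may be shared between them. Their summed fragments gave a 3.90-fold difference (3.73 to 4.08).

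A block of cathepsin L genes on chromosome 12 differed in the same direction. ctslb, a cathepsin L protease expressed in the hatching gland, was 15.14 FPKM at 3 ng, 73.1 FPKM at 6 ng and 52.1 FPKM in the control, which is 4.83-fold higher at 6 ng (4.3 to 5.44). Between positions 16555603 and 16951851 the table holds 13 genes, of which 12 were compared and 10 were at least 2-fold higher. These 10 were singled out after their values were seen and are taken here as cathepsin L copies whose reads may be split. Most of them have only a clone name or an identifier. Summed over them, the level was 113 FPKM at 3 ng, 489 FPKM at 6 ng and 448 FPKM in the control. The fragments gave a 4.38-fold difference (4.19 to 4.58). The sum leaves out compared genes under the limit, which favours a larger fold. These were MGC174155, at 1.41 FPKM at 3 ng and 3.81 FPKM at 6 ng, and si:dkey-269i1.4, at 7.07 and 10.9 FPKM. The highest copy was zgc:174153, at 35.1 FPKM at 3 ng, 166 FPKM at 6 ng and 128 FPKM in the control.

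The other hatching gland genes did not share this difference in size. Of 19 listed genes 18 were in the table and 11 were compared. Of these 4 were higher (he1.1, he1.2, he1.3 and ctslb), beside 1.11% of all genes, none was lower and the median was 0.17. The remaining 7 had log2 differences between -0.16 and 0.25. klf17, a transcription factor of the gland, was 15.3 FPKM at 3 ng and 14.8 FPKM at 6 ng. xbp1, a regulator of secretory capacity, was 121 and 118 FPKM, and agr2, a secretory pathway protein, was 5.54 and 4.84 FPKM.

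**Figure D3:**
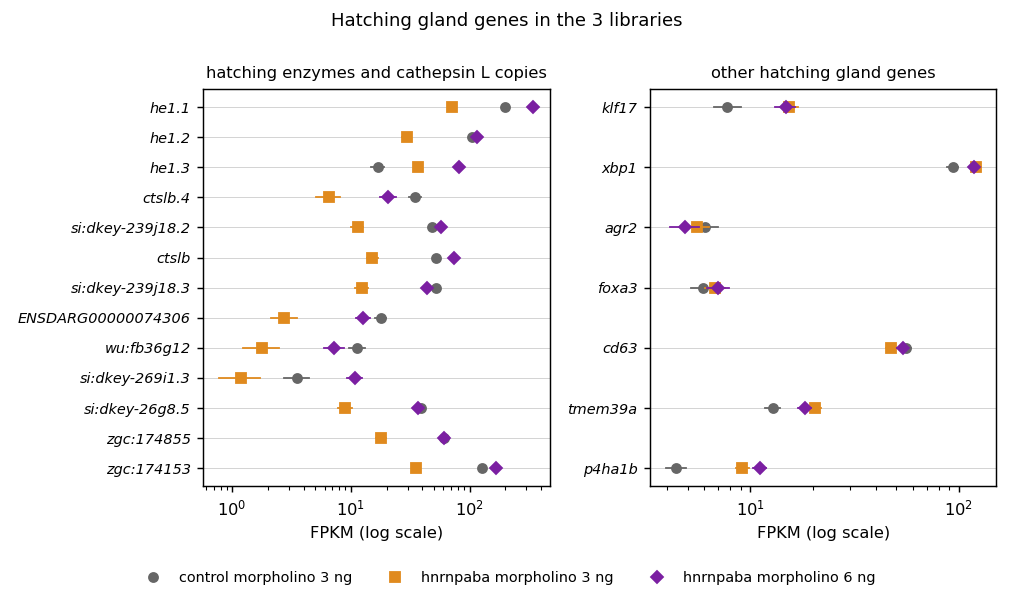
FPKM (log scale) of hatching enzymes and cathepsin L copies (left) and of the other hatching gland genes compared (right) in the 3 libraries, with exact Poisson 95% intervals of the fragments. Only cathepsin L copies at least 2-fold higher at 6 ng were drawn, so the direction in their rows was set by that choice. The 6 ng symbols of the hatching enzymes also lie to the right of the 3 ng symbols. In the right panel the symbols of both doses lie close together, as for xbp1 at 121 and 118 FPKM.

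A few injury genes were at least 2-fold higher at 6 ng. Of 43 listed proteases and cytokines 37 were in the table and 24 were compared, with 3 higher, none lower and 21 of 24 above 0, beside 1.11% higher and 57.5% above 0 over all genes. mmp9, a matrix metalloprotease induced in wounded epithelium, was 2.41 FPKM at 3 ng and 15.7 FPKM at 6 ng, with 1.73 FPKM in the control. Its log2 difference was 2.29 and it was 6.51-fold higher (5.40 to 7.89). The chemokine cxcl18b was 6.60 FPKM at 3 ng, 25.4 FPKM at 6 ng and 0.872 FPKM in the control. il34, a ligand of the macrophage growth factor receptor, was 1.51, 5.83 and 1.01 FPKM in the same order, 3.87-fold higher at 6 ng (2.76 to 5.51). For mmp9 and il34 the 3 ng library stood near the control, whereas for cxcl18b it stood well above it.

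AP-1 factors are dimers of Fos and Jun proteins that are switched on early after stress and wounding. Of the 32 AP-1 and immediate early genes compared 1 was higher, none was lower and 25 were above 0, with a median of 0.30. Over all genes 1.11% were higher and 57.5% were above 0. junba was 3.87 FPKM at 3 ng, 11.1 FPKM at 6 ng and 2.47 FPKM in the control, 2.88-fold higher at 6 ng (2.28 to 3.65). Its paralog junbb, at 26.4 and 53.4 FPKM, lay just under the limit with a log2 difference of 0.99. fosl1a was 3.24 and 5.97 FPKM, jun 37.4 and 53.8 FPKM and the related stress factor atf3 5.53 and 8.74 FPKM, all within 2-fold on the FPKM + 1 scale. The immediate early gene egr1 was 2.39 FPKM at 3 ng and 1.96 FPKM at 6 ng.

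Interferon-response genes act against viruses and in antigen presentation, and their list had the highest median, 0.53. Only 23 of 55 genes in the table were compared, because the other 32 did not reach a mean of 1 FPKM. Of the 23, 5 were higher, beside 1.11% of all genes, none was lower and 20 were above 0, beside 57.5% of all genes. Of these 5, irf1b, mxc and mxa reached the filter only through their 6 ng level, so their place among the higher genes and in the median was favoured by the filter. isg15, a ubiquitin-like modifier, was 20 FPKM at 3 ng, 59 FPKM at 6 ng and 0.360 FPKM in the control, 2.96-fold higher at 6 ng (2.63 to 3.33). irf1b, a transcription factor of the pathway, was 0.459 FPKM at 3 ng, 4.23 FPKM at 6 ng and 0.302 FPKM in the control, 9.22-fold higher (5.99 to 14.8). The 3 ng library was thus far above the control for isg15 and near it for irf1b.

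The antiviral GTPase genes mxc and mxa were 1.11 and 0.660 FPKM at 3 ng and 6.27 and 2.43 FPKM at 6 ng. b2m, the light chain of class I histocompatibility molecules, was 5.86 FPKM at 3 ng, 15.8 FPKM at 6 ng and 1.87 FPKM in the control, 2.7-fold higher (1.98 to 3.73). mhc1zba, a class I heavy chain looked up after the values were seen, was 10.4 FPKM at 3 ng, 25.3 FPKM at 6 ng and 4.84 FPKM in the control. The signalling factors differed less: irf9 was 3.48 and 4.27 FPKM, stat2 0.843 and 1.26 FPKM and irf7 1.5 and 2.16 FPKM. irf1a, the paralog of irf1b, went the other way, from 2.66 FPKM at 3 ng to 1.69 FPKM at 6 ng.

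Myeloid genes are given beside these injury and interferon values. Of 44 myeloid genes found, 19 were compared, and none was past 2-fold, beside 2.11% of all genes. Of the 19, 15 were above 0, beside 57.5% of all genes, and the median was 0.22. The sum over them was 486 FPKM at 3 ng, 628 FPKM at 6 ng and 429 FPKM in the control. Among the members under the filter, lyz was 0.280 FPKM at 3 ng and 0.122 FPKM at 6 ng, mpx 0.180 and 0.531 FPKM, spi1b 0.820 and 0.596 FPKM and mpeg1.1 0.492 and 0.672 FPKM. The part of leukocytes in the injury and interferon differences was not tested.

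Among cell death genes 1 of 42 was past 2-fold, beside 2.11% of all genes. caspb, an inflammatory caspase, was 4.03 FPKM at 3 ng, 10.9 FPKM at 6 ng and 7.57 FPKM in the control, 2.71-fold higher at 6 ng (2.19 to 3.37). casp8, the initiator caspase of the death receptor pathway, was 16.4 FPKM at 3 ng and 27.09 FPKM at 6 ng, with 1.25 FPKM in the control. mdm2, encoding a ubiquitin ligase, was 91.7 FPKM at 3 ng and 142 FPKM at 6 ng, and cdkn1a, encoding a cell cycle inhibitor, was 31.1 and 42.4 FPKM. In the control these were 11.4 and 5.29 FPKM, so both doses stood far above it.

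Epithelial genes lay mostly above 0 and within 2-fold. Of 63 epidermis and periderm genes compared none was past 2-fold, beside 2.11% of all genes. Of the 63, 57 (90.5%) were above 0, where 57.5% of all genes were, and the median was 0.37. The keratin gene krt8 was 566 FPKM at 3 ng, 1057 FPKM at 6 ng and 350 FPKM in the control, and krt5 was 1712 FPKM at 3 ng and 2457 FPKM at 6 ng. cldnf, a tight junction claudin, was 13.3 FPKM at 3 ng and 25.9 FPKM at 6 ng, 1.94-fold higher (1.72 to 2.2), and cdh1, encoding E-cadherin, 33.1 and 48.2 FPKM. tp63, the transcription factor of basal epidermis, was 26.4 and 36.7 FPKM. The keratin krtt1c19e was the exception in size, at 56.2 FPKM at 3 ng, 30.1 FPKM at 6 ng and 122 FPKM in the control.

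Ionocytes are salt-transporting cells of the embryonic skin. gcm2, a transcription factor needed for acid-secreting ionocytes in zebrafish, was 0.447 FPKM at 3 ng, 2.92 FPKM at 6 ng and 1.60 FPKM in the control, 6.55-fold higher at 6 ng (3.86 to 11.8). It was the 1 member of 40 pronephros and ionocyte genes past 2-fold, a share near the 2.11% of all genes. Among other members of this joint list, foxi3a, a regulator of ionocyte fate, was 3.15 and 6.35 FPKM. The potassium channel gene kcnj1a.5 was 5.71 and 11.3 FPKM. The cotransporter gene SLC12A1, not assigned here to ionocytes or pronephros, was 1.46 and 3.86 FPKM. These 3 lay between 0.82 and 0.98 on the log2 scale. Of the 40 genes, which include genes of the pronephros, 31 were above 0 and 9 below, with a median of 0.23. Over all genes 57.5% were above 0. The lowest was pax8, at 6.65 FPKM at 3 ng and 3.45 FPKM at 6 ng.

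**Figure D4:**
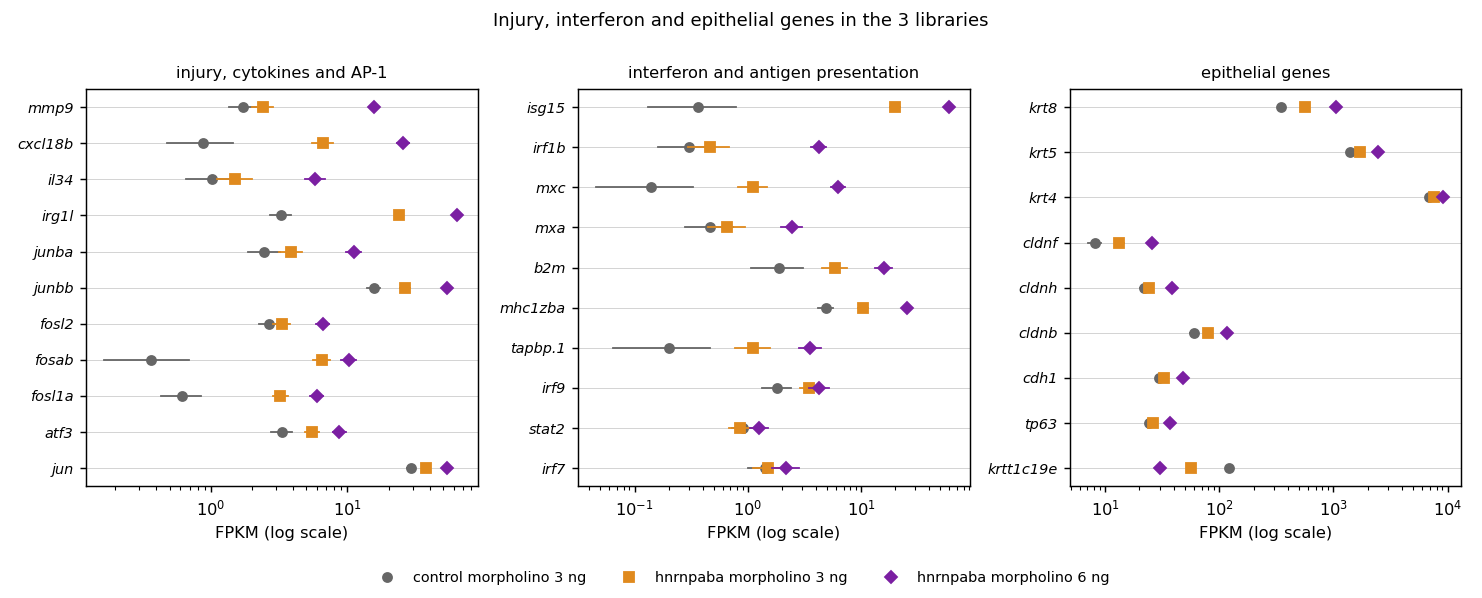
FPKM (log scale) of injury and AP-1, interferon and antigen presentation, and epithelial genes in the 3 libraries, with exact Poisson 95% intervals of the fragments. All genes drawn except krtt1c19e had their 6 ng symbol to the right of the 3 ng symbol, and krt8 lay at 566 and 1057 FPKM. The genes drawn were chosen with their values known, so this shared direction was favoured by that choice. egr1 and irf1a, which were lower at 6 ng, were not drawn.

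Some neural progenitor genes were at least 2-fold lower at 6 ng. SoxB factors and radial glial proteins mark the dividing cells of the neural tube, and of 52 such genes compared 12 were lower, beside 0.992% of all genes, none was higher, 42 were below 0 and the median was -0.62. sox19a, a SoxB1 factor, was 77.3 FPKM at 3 ng, 34.5 FPKM at 6 ng and 148 FPKM in the control. gfap, the intermediate filament of radial glia, was 69.4, 26.3 and 92.2 FPKM in the same order, 2.63-fold lower at 6 ng (2.45 to 2.83). fabp7a, a fatty acid binding protein of the same cells, was 13.3, 5.50 and 49.1 FPKM. For these 3 genes the control was the highest library and 6 ng the lowest.

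POU factors of class 3, which act in neural progenitors, were lower across paralogs. pou3f2b was 9.95 FPKM at 3 ng, 3.00 FPKM at 6 ng and 22.2 FPKM in the control, 3.32-fold lower at 6 ng (2.74 to 4.04). pou3f2a was 3.74 and 0.974 FPKM, pou3f1 10.8 and 4.09 FPKM and pou3f3b 18 and 7.5 FPKM. dbx1b, a homeobox gene of intermediate progenitors of the neural tube, was 10.3 FPKM at 3 ng and 3.11 FPKM at 6 ng. Other progenitor genes were nearer: sox2 was 35.9 and 26 FPKM and sox3 75.3 and 51.1 FPKM. her6 and vim stood higher, at 64.3 and 76.3 FPKM and at 16.5 and 19.4 FPKM.

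Proneural factors start neuronal differentiation and Delta ligands signal through Notch to neighbouring cells. Of 41 such genes 4 were lower (neurog1, atoh1a, ascl1b and dla), beside 0.992% of all genes, none was higher and the median was -0.28. neurog1 was 22.6 FPKM at 3 ng, 7.57 FPKM at 6 ng and 23.1 FPKM in the control, 2.99-fold lower at 6 ng (2.48 to 3.61). dla, a Delta ligand, was 13.8 FPKM at 3 ng, 5.99 FPKM at 6 ng and 32.2 FPKM in the control. At 3 ng neurog1 was thus near the control while dla was well under it. The receptor gene notch1a was 20.4 and 17.4 FPKM. Of 58 genes of differentiated neurons none was past 2-fold, beside 2.11% of all genes. Of the 58, 52 were below 0, where 57.5% of all genes were above 0. Their median was -0.24, near the -0.28 of the proneural and Notch genes.

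In the ventral neural tube the largest difference was in olig2, a bHLH factor of motor neuron and oligodendrocyte progenitors. It was 42.8 FPKM at 3 ng, 6.96 FPKM at 6 ng and 97.7 FPKM in the control, 6.15-fold lower at 6 ng (5.21 to 7.30). nkx2.2b, a ventral homeobox gene, was 3.00, 0.406 and 4.32 FPKM in the same order, 7.38-fold lower (3.72 to 16.7). plp1a, a myelin protein gene, was 11.2, 4.13 and 44.2 FPKM. In the Hedgehog signal that patterns this region, the ligand gene shha and the effector gene gli1 were near equal at the doses. shha was 15.9 FPKM at 3 ng and 15.22 FPKM at 6 ng, and gli1 was 8.59 and 8.37 FPKM. In all 4 of 41 genes of this list were lower, beside 0.992% of all genes, and the median was -0.09. Of the 41, 28 were below 0 and 13 above, where 57.5% of all genes were above 0. The last of the 4, lhx4, lay just past the limit. It was 5.10 FPKM at 3 ng, 2.05 FPKM at 6 ng and 3.63 FPKM in the control.

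At the midbrain-hindbrain boundary, a signalling centre of the brain, both engrailed 2 genes were lower. en2b was 6.82 FPKM at 3 ng, 0.687 FPKM at 6 ng and 8.71 FPKM in the control, 9.93-fold lower at 6 ng (6.06 to 17.4). en2a was 5.77, 1.80 and 7.33 FPKM in the same order, 3.21-fold lower (2.47 to 4.21). For both genes the 3 ng library lay near the control. en1b was 9.19 and 8.28 FPKM and the boundary gene cnpy1 11.8 and 12 FPKM, while fgf8a, the signal of the boundary, was 3.1 and 4.02 FPKM. otx2b, a midbrain and forebrain homeobox gene, was 7.93 FPKM at 3 ng and 3.37 FPKM at 6 ng. It was the third lower gene of the 29 compared, beside 0.992% of all genes (median -0.24). gsx1, a homeobox gene of dorsal neural progenitors on none of these lists, was 6.58 FPKM at 3 ng, 1.66 FPKM at 6 ng and 11.8 FPKM in the control.

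Lens genes had the lowest median, -0.91. Of 63 found, 21 were compared, and 42 did not reach a mean of 1 FPKM. Of the 21, 10 were lower, beside 0.992% of all genes, and none was higher. Crystallins are the refractive proteins of lens fibres, and their rows share sequence, so reads may be split among them. crygn2 was 9.48 FPKM at 3 ng, 1.88 FPKM at 6 ng and 21.7 FPKM in the control, 5.04-fold lower at 6 ng (3.30 to 8.02). CRYBB1 was 22.8, 8.11 and 48.5 FPKM in the same order. cryba1b was 7.06, 1.66 and 15.15 FPKM, 4.25-fold lower (3.15 to 5.85). mipa, an aquaporin of lens fibres, was 3.19 FPKM at 3 ng, 0.285 FPKM at 6 ng and 8.15 FPKM in the control, 11.2-fold lower (6.08 to 22.8). In each of these the 6 ng library was the lowest and the control the highest.

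The transcription factors of the lens did not follow the crystallins in size. pitx3 was 5.69 FPKM at 3 ng and 3.83 FPKM at 6 ng, and foxe3, a factor of the lens epithelium, was 1.94 and 3.62 FPKM. None of 29 eye field and retina genes was past 2-fold, beside 2.11% of all genes. Of the 29, 20 were below 0, where 57.5% of all genes were above 0, and the median was -0.34. pax6a, a regulator of eye and neural tube, was 13.2 and 7.08 FPKM and pax6b 5.45 and 3.31 FPKM.

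Melanophores are the black pigment cells of the neural crest, and several genes of melanin synthesis were at least 2-fold lower at 6 ng. Of 21 melanophore genes compared 7 were lower, beside 0.992% of all genes, none was higher and the median was -0.75. tyr, encoding tyrosinase, was 14.1 FPKM at 3 ng, 5.68 FPKM at 6 ng and 18.9 FPKM in the control, 2.48-fold lower at 6 ng (2.06 to 3.00). tyrp1b was 10.8, 3.00 and 33.6 FPKM in the same order and DCT 13.4, 4.36 and 27.23 FPKM, both encoding enzymes of the same pathway. pmelb, a structural protein of the pigment granule, was 5.62 and 1.34 FPKM, and slc24a5, an ion exchanger of these cells, was 2.93 and 0.516 FPKM. Some genes that act earlier in the lineage differed less: mitfa, the master regulator, was 6.67 and 4.72 FPKM, the receptor gene kita 1.9 and 2.2 FPKM and tfap2a 36.9 and 41.2 FPKM. tfap2e, a paralog of tfap2a, was 2.95 FPKM at 3 ng, 0.944 FPKM at 6 ng and 2.37 FPKM in the control. It was 3.12-fold lower at 6 ng (2.25 to 4.41) and the 1 of 38 neural crest genes past 2-fold, beside 2.11% of all genes.

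Pteridines are the yellow pigments of xanthophores, made from GTP. gch2, the GTP cyclohydrolase of the first step, was 84.2 FPKM at 3 ng, 20 FPKM at 6 ng and 106 FPKM in the control. PTS, the enzyme of the next step, was 143, 42.7 and 154 FPKM in the same order, and sprb, a sepiapterin reductase, 9.12, 2.3 and 15.7 FPKM, 3.96-fold lower at 6 ng (2.86 to 5.6). slc2a15b, a sugar transporter gene needed for xanthophores in fish, was 13.1 FPKM at 3 ng, 4.71 FPKM at 6 ng and 13 FPKM in the control. For gch2, PTS and slc2a15b the 3 ng level was close to the control level. These were the 4 lower genes of 31 pteridine and purine genes compared, beside 0.992% of all genes. None of the 31 was higher (median -0.28). The reductase paralog spra was 6.25 and 6.66 FPKM, pcbd1, a pterin recycling enzyme, 8.18 and 9.62 FPKM and paics of purine synthesis 27.4 and 27.6 FPKM.

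**Figure D5:**
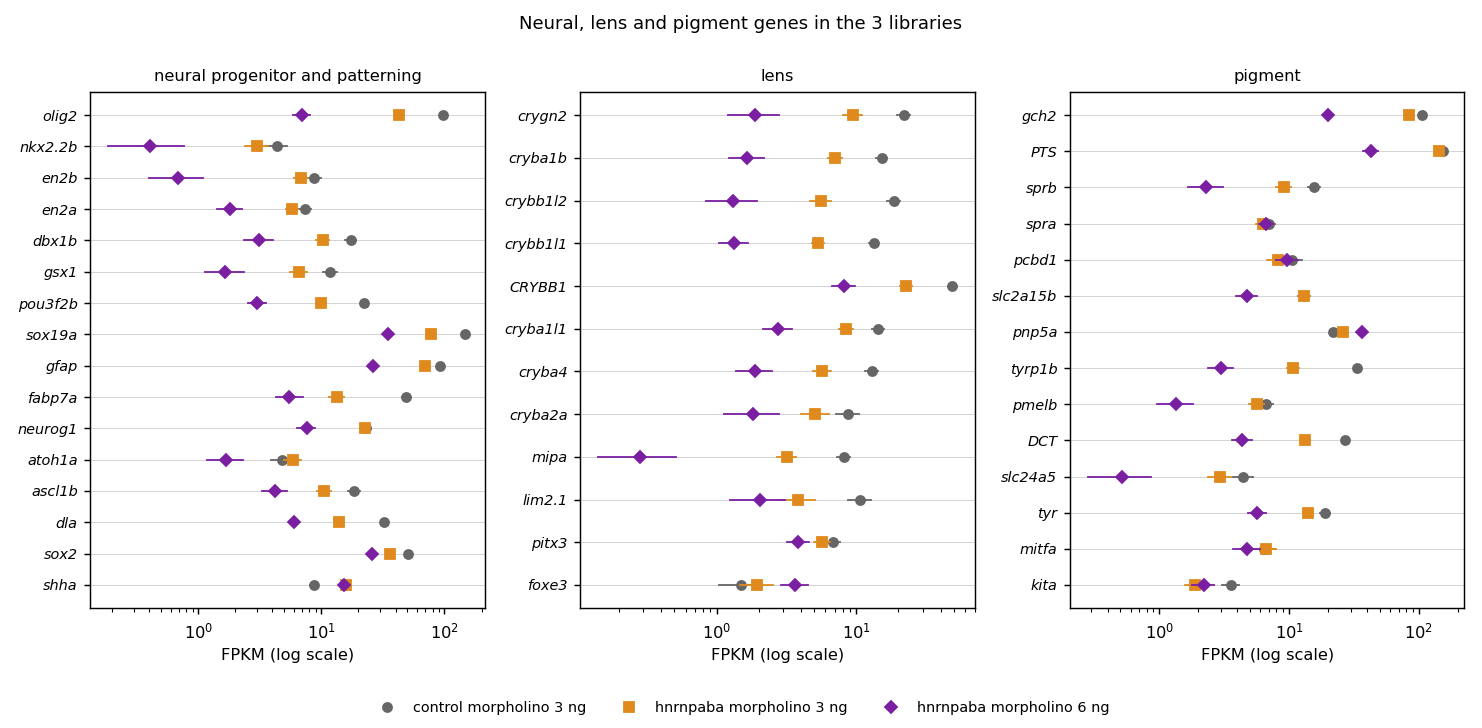
FPKM (log scale) of neural, lens and pigment genes in the 3 libraries, with exact Poisson 95% intervals of the fragments. The 6 ng symbol lies left of the 3 ng symbol for most genes, from 42.8 to 6.96 FPKM for olig2 and from 84.2 to 20 FPKM for gch2. foxe3, spra, pcbd1, pnp5a and kita lie the other way. The genes drawn were chosen with their values known, and her6, vim and tfap2a, which were higher at 6 ng, were not drawn.

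Genes of the contractile apparatus of skeletal muscle lay mostly below 0. Of 91 compared 3 were lower, 1 was higher and 73 were below 0, with a median of -0.30. Over all genes 0.992% were lower, 1.11% were higher and 57.5% were above 0. tnnt2d, a troponin T gene, was 17.2 FPKM at 3 ng, 4.72 FPKM at 6 ng and 23.4 FPKM in the control, 3.63-fold lower at 6 ng (2.76 to 4.86). cacna1sa, the calcium channel of excitation-contraction coupling, was 2.56 and 0.640 FPKM. actn2b, an actin cross-linker, was 7.04 and 3.01 FPKM and lay just past the limit. The higher member was atp2a1l, a calcium pump gene, at 1.47 and 5.64 FPKM, with 0.510 FPKM in the control. It reached the filter only through its 6 ng level. The actin gene acta1b was 804 FPKM at 3 ng and 857 FPKM at 6 ng.

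Genes of growth and division lay mostly below 0, with none past 2-fold. Over all genes 2.11% were past 2-fold and 57.5% were above 0. Among ribosomal protein genes 80 of 84 were below 0 (median -0.21), among S phase genes 66 of 73 (median -0.22) and among mitosis genes 67 of 77 (median -0.13). pcna, the replication clamp, was 387 FPKM at 3 ng, 284 FPKM at 6 ng and 590 FPKM in the control. Ribosome biogenesis genes, 71 of 101 above 0, had a median of 0.07, near that of all genes. Notochord genes had a median of 0.22 and presomitic mesoderm and somite genes 0.18, with none past 2-fold in either list. For heart, globin, erythroid, retinoic acid, sterol, Wnt, aryl hydrocarbon receptor, heat shock and unfolded protein genes the medians lay between -0.07 and 0.05.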

How the data were processed

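RNA-seq of 3 libraries was analysed. The authors deposited FPKM values for 25961 genes, and per the labels' protocols reads were mapped to a zebrafish reference after sequencing on a BGISEQ-500. The aligner, counting tool, build and strandedness were not given in the sources used here. In the table, the control column names neither a morpholino nor a dose and was matched as the 1 control of the series. Fragments were recovered from the steps between FPKM values (tolerance 0.05 fragments) for 25961 genes, and summed to 95.8 to 96.0% of the library totals. The totals were recovered from the same values, so this share is no independent check. The shortest length of a gene model that made the fragments whole was taken, so lengths and fragments are lower limits. Where a length is too short, the fragments are too few in proportion. The fold of a single gene is then unchanged and its interval too wide. Symbols came from the table and a gene name table holding 24221 of its identifiers. irf1b is so named from its description, since the symbol column gives another gene.

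Differences used a pseudocount of 1 FPKM, a mean of 1 FPKM or more over the 3 columns and a 2-fold limit. The software was Python 3.11.15, pandas 2.3.3 and SciPy 1.17.1. Fragment recovery and the 2-fold rule were tried on simulated fragments. These were drawn with the recovered lengths, so they cannot show lengths that are too short. They held counting error only, and the filter there used only the hnrnpaba morpholino columns. Neighbouring genes were joined where starts lay within 100 kb. Of 3032 list entries 2876 were matched. Named genes were the 15 largest differences each way with a mean of 5 FPKM or more, an interval excluding equality and a real symbol, up to 5 list members past 2-fold each way (the extreme members where fewer than 2 were), both hnrnpab genes, and up to 3 more members for contrasts; any further gene named was chosen after its values were seen. The lists, members and comparison were chosen with earlier results of these data known. Some genes and 1 list are not reported here. Alternative pseudocounts, filters, scalings and limits were tried.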

Additional observations from a re-analysis of the deposited data

How the results depend on the processing

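No paired analysis was possible because each dose has 1 library. Counts of higher and lower genes were 426 and 365 with a pseudocount of 0.1 FPKM and 33 and 20 with 5 FPKM. They were 62 and 75 with a mean of 5 FPKM or more, 849 and 622 at a 1.5-fold limit and 46 and 29 at a 3-fold limit. With only genes that are protein coding in RefSeq, an alternative chosen after seeing the data, they were 86 and 90. Equal sums gave 200 and 144, equal median ratios (a shift of 0.06 on the log2 scale) 167 and 180, a filter on the morpholino columns 196 and 165 and no filter 269 and 199. Of 588 differences of named genes under the alternatives 514 moved little, 74 moved more, 55 of them with a pseudocount of 5 FPKM, and none reversed. Of 406 list medians 387 were labelled the same and 19 moved. The sign of a median near 0 turned for Wnt, aryl hydrocarbon receptor, globin, erythroid, heart, heat shock, retinoic acid, unfolded protein, sterol and neural crest genes. The median of neural crest genes went from -0.05 to 0.14 with a mean of 5 FPKM or more. The splits of higher against lower genes turned under the mean of 5 FPKM, median ratios and coding genes. Depth limits genes without fragments, 19 of the higher genes at 3 ng and 12 of the lower at 6 ng.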

Other observations

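Some genes past 2-fold in the same direction lay near each other, in part with genes between them that were not past the limit. In all 30 runs with starts within 100 kb held 73 of the 346 genes, 17 runs of higher genes and 13 of lower genes, and the 8 runs of 3 or more genes were all higher. The share of all genes compared that have such neighbours was not computed. Whether genes past 2-fold lie closer together than other genes was thus not tested. Besides the hatching enzymes and the cathepsin L copies, irg1l, an enzyme induced in inflammation, lay with 3 clone-named genes on chromosome 14, between positions 11427052 and 11461002. irg1l was 23.7 FPKM at 3 ng, 63.8 FPKM at 6 ng and 3.25 FPKM in the control, and the fragments of the 4 genes gave a 2.54-fold difference (2.44 to 2.65). On chromosome 15 the clone-named gene si:ch1073-340i21.3 was 1.12 FPKM at 3 ng, 17.0 FPKM at 6 ng and 0.795 FPKM in the control. It reached the filter only through its 6 ng level. si:ch1073-340i21.2, within the same run and not past the limit, was 10.1 FPKM at 3 ng and 9.23 FPKM at 6 ng. The run genes were chosen after their values were seen, and reads of neighbouring copies may be split.

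Some metabolic and transport genes were at least 2-fold different, and of those given here cyp24a1, slc2a1a and mtbl were among the largest differences. cyp24a1, which inactivates vitamin D, was 5.59 FPKM at 3 ng, 21.7 FPKM at 6 ng and 0.874 FPKM in the control, 3.89-fold higher at 6 ng (2.95 to 5.18). The glucose transporter gene slc2a1a was 8.14, 29.5 and 24.6 FPKM in the same order, with the 3 ng library the lowest. ctsll, a cathepsin L-like protease gene, was 14.2, 32.0 and 5.92 FPKM. On the lower side the metallothionein gene mtbl was 18, 4.34 and 19.8 FPKM, 4.15-fold lower at 6 ng (2.59 to 6.96), while mt2 was 29.6 and 17.0 FPKM. aqp1a.1, a water channel gene of red cells, was 21.0 and 8.48 FPKM, and fabp11a, a fatty acid binding protein gene, 51.1 and 23.2 FPKM.

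Of 27 germ cell and egg genes compared 3 were lower at 6 ng, beside 0.992% of all genes, and none was higher (median -0.33). zp3, an egg envelope glycoprotein, was 11.8 FPKM at 3 ng, 5.37 FPKM at 6 ng and 1.70 FPKM in the control, just past the limit. zp3f.1 of the same family was 9.23, 3.99 and 1.70 FPKM. The third, zgc:175135, was 14.9, 1.40 and 1.54 FPKM. The germ cell genes nanos3 and ddx4 were 1.25 and 1.44 FPKM at 3 ng and 2.68 and 1.99 FPKM at 6 ng.

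Some noncoding RNAs also stood apart. rn7sk, the 7SK RNA that restrains transcription elongation, was 35.7 FPKM at 3 ng, 88.4 FPKM at 6 ng and 3.62 FPKM in the control. The 5_8S_rRNA row was 79.4, 181 and 12.9 FPKM, while 5S_rRNA was 26.5 and 26.2 FPKM and rn7sl1 17.2 and 17.1 FPKM. malat1, a nuclear long noncoding RNA, was 85.6 FPKM at 3 ng and 41.6 FPKM at 6 ng. How RNA was selected is not stated in the labels, and its part in these levels was not tested.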
